A study of Mus musculus with 12 samples.

Results

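Smooth muscle contractile and cytoskeletal genes were followed in rectal RNA of mice with and without colitis and berberine (BBR). The group is a list of 33 gene symbols covering the contractile filaments of smooth muscle, the proteins that anchor them, calcium handling and potassium channels, small heat shock proteins and the coactivator myocardin. A listed gene was kept when its row was in the deposited table of 17734 genes and its mean over the 12 mice was at least 0.1 FPKM, a unit scaled for transcript length and sequencing depth. All 33 listed genes met both conditions. The samples were from male C57BL/6 mice aged 8 to 10 weeks, and each of the 4 groups had 3 mice. Normal mice drank plain water. Colitis mice received 2.5% dextran sulfate sodium (DSS), a polymer that damages the gut epithelium, for 7 days in the water they drank. Normal mice receiving BBR were given 100 mg/kg of BBR by gavage without DSS, and colitis mice receiving BBR had both treatments. The gavage lasted 6 days by the treatment protocol of the labels, while the methods describe daily gavage through day 7 and the titles carry a time of 7 days. The labels name the tissue colorectum and the methods describe rectal samples.

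Smooth muscle forms the muscularis propria of the gut wall and the thin muscularis mucosae, and it also lines blood vessels. Its force comes from myosin II thick filaments that pull on actin thin filaments once myosin light chain kinase, switched on by calcium and calmodulin, has phosphorylated the regulatory light chain. Thin filaments end in dense bodies and membrane plaques, which take the place of the Z-discs of striated muscle, and desmin intermediate filaments link these anchors. Most genes of this apparatus are driven by serum response factor, which binds the CArG box, together with the coactivators myocardin, Mrtfa and Mrtfb. In a bulk sample, fewer smooth muscle cells and less RNA per smooth muscle cell cannot be told apart.

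The promoters of these genes are shown because the CArG box is the element the gene group is known for. RefSeq promoter windows of the mouse build GRCm38.p6, running from 250 bases before to 50 bases after the start, were matched by symbol for 28 of the 33 genes. An exact CArG box was found on either strand in the windows of 3 of the 28 genes (10.7%), namely Ldb3, Myl9 and Myom1, and in 488 of 27025 genes of the whole RefSeq set (1.81%). With up to 1 base of the A- and T-rich core replaced, which includes the exact boxes, the counts were 9 of 28 (32.1%) and 3050 of 27025 (11.3%). These shares are descriptions of the letters in these windows, and no binding was measured. The windows below belong to the smooth muscle actin gene Acta2, which has 2 boxes with 1 replaced base (chr19:34255324-34255623, minus strand), to the regulatory light chain gene Myl9, with an exact box and a second box with 1 replaced base (chr2:156775214-156775513, plus strand), to Ldb3, the member with the smallest difference between colitis and normal mice, whose window holds an exact box (chr14:34588632-34588931, minus strand), and to the phospholamban gene Pln, which was lowest relative to normal mice in colitis and has no match (chr10:53337436-53337735, plus strand). Capitals mark the boxes.
Acta2: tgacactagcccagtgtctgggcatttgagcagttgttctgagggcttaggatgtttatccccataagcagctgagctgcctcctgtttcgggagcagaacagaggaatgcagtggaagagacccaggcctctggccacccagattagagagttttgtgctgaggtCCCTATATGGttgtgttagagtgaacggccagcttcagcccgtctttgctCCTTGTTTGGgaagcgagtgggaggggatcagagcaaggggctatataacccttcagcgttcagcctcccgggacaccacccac
Myl9: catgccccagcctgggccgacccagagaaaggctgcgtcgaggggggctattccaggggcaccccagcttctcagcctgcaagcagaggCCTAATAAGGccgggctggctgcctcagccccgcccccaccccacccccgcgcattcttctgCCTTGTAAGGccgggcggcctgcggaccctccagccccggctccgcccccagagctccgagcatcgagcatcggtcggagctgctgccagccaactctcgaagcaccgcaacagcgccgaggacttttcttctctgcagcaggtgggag
Ldb3: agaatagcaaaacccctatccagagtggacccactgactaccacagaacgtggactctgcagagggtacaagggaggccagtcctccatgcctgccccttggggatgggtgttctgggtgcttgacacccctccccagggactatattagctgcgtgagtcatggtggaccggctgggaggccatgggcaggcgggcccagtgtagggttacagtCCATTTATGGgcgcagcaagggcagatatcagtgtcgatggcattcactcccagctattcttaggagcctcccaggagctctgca
Pln: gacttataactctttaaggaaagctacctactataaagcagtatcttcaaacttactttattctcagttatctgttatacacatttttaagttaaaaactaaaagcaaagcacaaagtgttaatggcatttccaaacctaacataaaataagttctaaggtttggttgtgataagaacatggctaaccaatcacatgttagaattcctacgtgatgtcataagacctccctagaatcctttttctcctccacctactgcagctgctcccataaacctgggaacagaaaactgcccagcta

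Mice with the label number 4 stood apart from the others in every group. Their columns summed to at most 504337 FPKM with 872 to 1086 genes at 0, against at least 696286 FPKM and 1332 to 1926 genes at 0 in the mice numbered 1 to 3. The labels do not say what the number marks, so results are also given for the mice numbered 1 to 3 alone and for those numbered 4. The table holds no read counts. On a transcript of 2000 bases, 3 reads were worth roughly 0.121 to 0.130 FPKM in mice numbered 1 to 3 and 0.0757 to 0.0866 FPKM in those numbered 4. Of the 396 values of the 33 genes, 3 lay under the 3-read floor of their gene, all in colitis mouse number 1 (Itga8, Myocd and Pln).

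The 33 genes together were much lower in colitis mice, and their levels spread widely between mice. Their summed level was 3136 to 5675 FPKM in the normal mice, and in the colitis mice 530.2 to 1595 FPKM. It was 4177 to 8836 FPKM in normal mice receiving BBR and 1079 to 5910 FPKM in colitis mice receiving BBR. As a share of all RNA in the table the genes went from 0.0742% in colitis mouse number 1 to 1.81% in normal mouse number 4 receiving BBR. The same mice held the extremes of nearly every gene. Colitis mouse number 1 had the lowest level of the 12 mice for 30 of the 33 genes, and normal mouse number 4 receiving BBR the highest for 31 of the 33. Within each of the 4 groups the mean log2 level of the 33 genes was highest in the mouse numbered 4. The sums of the 3 colitis mice lay below those of all normal mice, while colitis mice receiving BBR were split, with 1079 and 1147 FPKM in the mice numbered 2 and 3 and 5910 FPKM in the mouse numbered 4.

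**Figure D1:**
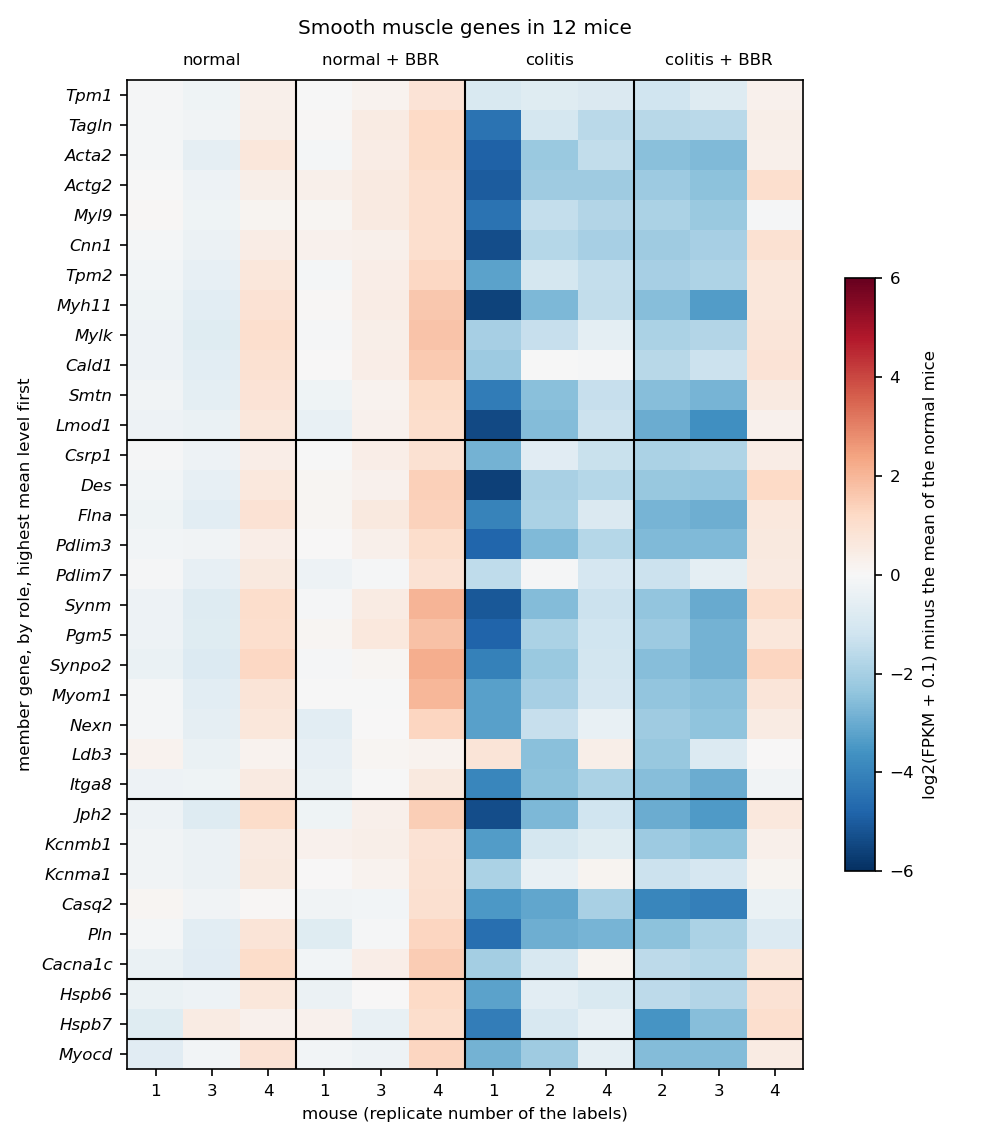
Each column is 1 mouse and each row 1 of the 33 genes, ordered by role and level, and color gives log2(FPKM + 0.1) minus the mean of the 3 normal mice. Colitis mouse number 1 has the lowest value in 30 of the 33 rows, and colitis mouse number 4 receiving BBR has colors near those of the normal mice.

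The first comparison asked how the genes differ after DSS. Between colitis and normal mice, the mean log2 level of all 33 genes was lower in colitis, with a median log2 difference of −2.36 and a range from −3.42 to −0.45. For Ldb3 the mean FPKM was not lower, at 2.66 in colitis and 2.55 in normal mice, and its sign turned in some alternatives. The median over all 15315 tested genes was −0.32. By limma on log2(FPKM + 0.1), 23 of the 33 were lower with an unadjusted P not above 0.05, which is the limit of the study, against 15.9% of all tested genes. For 24 of the 33 every colitis mouse lay below every normal mouse, against 22.2% of all tested genes. After Benjamini-Hochberg adjustment over all tested genes, 1 of the 33, Pln, was under 0.05, against 1.08% of all tested genes. With 3 mice in each group the smallest p of an exact permutation test, two-sided, is 0.1. The labels do not say whether mice of a group shared a litter or cage, so p-values measure the spread between these mice. The scaling between mice matters little for the direction. Quantile normalization moved the median of all genes to −0.05 and that of the 33 genes to −2.12, with all 33 still lower.

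The size of the decrease and the number of calls depended on colitis mouse number 1 and on the mice numbered 4, and the share of all tested genes that was called moved as well. Without colitis mouse number 1 the median of the 33 genes was −1.48, and 9 were lower past the unadjusted limit against 9.89% of all tested genes. Without normal mouse number 4 the median was −1.83, and 13 were lower past that limit against 10.7%. In the mice numbered 1 to 3 alone the median was −2.51, with 27 lower past the unadjusted limit, against 27.4% of all tested genes, and 7 past the adjusted limit by limma, against 5.25%. Without colitis mouse number 4 receiving BBR, which enters this comparison only through the shared estimate of the spread, 9 passed the adjusted limit, against 5.34%. Between the 2 mice numbered 4, 1 colitis and 1 normal mouse, it was −1.94, with 32 lower. With a term for the mice numbered 4 in the fit, the median stayed at −2.36 and 22 of the 33 passed the adjusted limit by limma, against 9.22% of all tested genes.

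**Figure D2:**
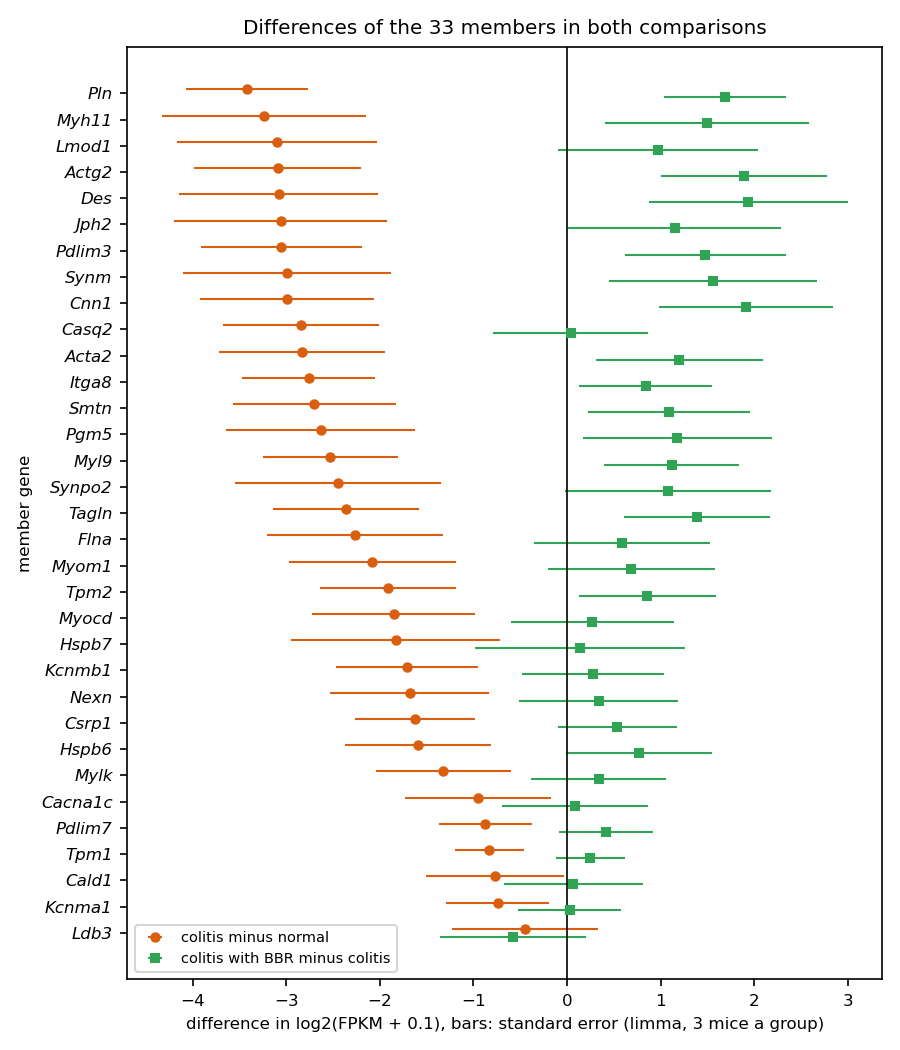
Points give the difference in log2(FPKM + 0.1) of each of the 33 genes with its standard error from limma (3 mice a group), for colitis minus normal mice (circles) and colitis mice receiving BBR minus colitis mice (squares). Both comparisons use the same 3 colitis mice. Circles run from −3.42 for Pln to −0.45 for Ldb3, and all squares but that of Ldb3 lie above 0, most with bars of similar size to the difference.

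The 12 genes of the thick and thin filaments carried most of the RNA of the group, with 2600 to 4590 FPKM in the normal mice, and in the colitis mice 462 to 1290 FPKM. All 12 were lower in colitis, with a median of −2.62, and 10 of them passed the unadjusted limit, against 15.9% of all tested genes. Tpm1, Tagln and Acta2 had the highest levels. Acta2, the vascular and visceral smooth muscle actin, was 398.52, 301.03 and 696.94 FPKM in the normal mice, and in the colitis mice 15.28, 94.77 and 158.60 FPKM. The groups did not overlap, and colitis mouse number 1 had the lowest value of all 12 mice. The log2 difference was −2.83 (standard error 0.89, limma adjusted p = 0.118). Tagln, which encodes the actin-binding protein transgelin, was 553.19, 508.15 and 757.51 FPKM in the normal mice, and in the colitis mice 27.82, 286.01 and 197.21 FPKM. It too was separated between the groups, with a log2 difference of −2.36 (standard error 0.78, limma adjusted p = 0.133).

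Myh11, the smooth muscle myosin heavy chain and named here after its values were seen, had one of the largest differences in this role. It was 150.61, 113.00 and 328.52 FPKM in the normal mice, and in the colitis mice 3.67, 27.23 and 64.31 FPKM. Its log2 difference was −3.24 (standard error 1.09, limma adjusted p = 0.137), and −3.69 in the mice numbered 1 to 3. Tpm1, which encodes tropomyosin on the thin filament and is used by many cell types, was lower by far less. It was 576.28, 510.77 and 739.93 FPKM in the normal mice, and in the colitis mice 324.37, 362.78 and 327.41 FPKM. The 3 colitis mice were close to each other for Tpm1, where most other members spread widely, and the groups did not overlap. The log2 difference was −0.83 (standard error 0.37, limma adjusted p = 0.222).

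Actg2, the enteric smooth muscle actin, Cnn1 (calponin), Lmod1 (leiomodin, which nucleates actin filaments), Myl9, Smtn (smoothelin) and Tpm2 (another tropomyosin) had log2 differences of −3.10 for Lmod1 to −1.91 for Tpm2, and their groups did not overlap. The 2 genes of this role that missed the unadjusted limit were Mylk, the myosin light chain kinase, at −1.32 (limma adjusted p = 0.29) and Cald1, caldesmon, at −0.77 (limma adjusted p = 0.528). Cald1, named after its values were seen, was 33.33, 26.50 and 77.54 FPKM in the normal mice, and in the colitis mice 8.81, 39.96 and 38.61 FPKM. Only colitis mouse number 1 lay below the normal mice for it. Acta2 and Actg2, and Tpm1 and Tpm2, are close relatives. Single-end reads of 50 bases can match both members of such a pair, and RSEM divides them by estimate, so the split within each pair is uncertain.

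The 12 genes of intermediate filaments, dense bodies and adhesion also all had a lower mean log2 level in colitis, with a median of −2.36. The unadjusted limit was passed by 9 of them, against 15.9% of all tested genes lower past it. Csrp1, a LIM protein bound to the actin cytoskeleton, was 245.22, 205.37 and 336.84 FPKM in the normal mice, and in the colitis mice 35.98, 160.34 and 101.15 FPKM. Des, the muscle intermediate filament protein desmin, was 174.08, 141.56 and 309.12 FPKM in the normal mice, and in the colitis mice 3.97, 51.09 and 60.51 FPKM. Both were separated between the groups. The log2 difference was −1.62 for Csrp1 (standard error 0.64, limma adjusted p = 0.182). For Des it was −3.08 (standard error 1.06, limma adjusted p = 0.143). Flna, the actin cross-linker filamin A, which non-muscle cells also use, was 65.38, 50.91 and 144.03 FPKM in the normal mice, and in the colitis mice 4.82, 20.73 and 42.22 FPKM, a log2 difference of −2.26 (standard error 0.94, limma adjusted p = 0.198).

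Of the other members of this role, Pdlim3, a PDZ and LIM protein of the Z-disc, was at −3.05, the intermediate filament gene Synm at −2.99 and the integrin gene Itga8 at −2.76. Pgm5, which encodes the adhesion protein aciculin, was at −2.63, Synpo2, which encodes an actin-bundling protein, at −2.45 and Myom1, which encodes myomesin, at −2.08. These 6 had groups that did not overlap. Nexn, an actin-binding protein gene, at −1.68 and Pdlim7, another PDZ and LIM protein gene, at −0.87 overlapped between the groups and missed the unadjusted limit. In Myom1 and Ldb3, genes best known from striated muscle, the levels were low, with means of 3.78 and 2.28 FPKM over the 12 mice.

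Ldb3, a PDZ and LIM protein of the Z-disc named here after its values were seen, was the exception within the group. In FPKM, it was 2.92, 1.86 and 2.88 in the normal mice, 4.35, 0.36 and 3.26 in the colitis mice, 1.75, 2.72 and 2.96 in normal mice receiving BBR and 0.43, 1.36 and 2.54 in colitis mice receiving BBR. Colitis mouse number 1, which had the lowest level of 30 other genes of the group, had the highest Ldb3 level of the 12 mice. The difference between colitis and normal mice was −0.45 (standard error 0.78, limma adjusted p = 0.734), while it was 0.57 without colitis mouse number 2 and 0.26 with the replicate number as a block.

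The 6 genes of calcium handling and ion channels were at low levels, with sums of 14.8 to 35.8 FPKM in the normal mice, and in the colitis mice 1.59 to 11.2 FPKM. Their median was −2.27, and 4 of the 6 were lower past the unadjusted limit, against 15.9% of all tested genes. Pln, which encodes phospholamban, an inhibitor of the calcium pump of the sarcoplasmic reticulum, was 2.64, 1.82 and 4.97 FPKM in normal mice. In colitis mice it was 0.03, 0.29 and 0.33 FPKM, and the first of these is under its 3-read floor of 0.107 FPKM. All 3 colitis mice were below all 9 others. On the log2 scale Pln fell by 3.42, with a standard error of 0.65 and a limma adjusted p = 0.0362. Of the 6 fits without 1 of the compared mice, 5 lost the adjusted call, and the size of the difference follows the pseudocount, with −4.18 at 0.01 and −1.71 at 1, where the adjusted p was 0.054 and 0.0622 by limma. The difference was −3.35 in the mice numbered 1 to 3 and −3.56 between the mice numbered 4.

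Jph2, junctophilin, which holds the sarcoplasmic reticulum close to the cell membrane, was 5.29, 3.78 and 14.22 FPKM in the normal mice, and in the colitis mice 0.07, 0.94 and 2.85 FPKM. Its groups did not overlap, with a log2 difference of −3.06 (standard error 1.14, limma adjusted p = 0.164). Casq2, a calcium-storing protein of the reticulum named after its values were seen, was 3.80, 3.06 and 3.75 FPKM in the normal mice, and in the colitis mice 0.23, 0.32 and 0.83 FPKM. It was at −2.84 (standard error 0.83, limma adjusted p = 0.103). Both parts of the large-conductance, calcium-activated potassium channel are members. Kcnmb1, its smooth muscle beta subunit, was 3.15, 2.90 and 5.43 FPKM in the normal mice, and in the colitis mice 0.27, 1.72 and 2.21 FPKM, at −1.71 (standard error 0.76, limma adjusted p = 0.221). Kcnma1, its pore-forming alpha subunit, was 2.79, 2.55 and 4.90 FPKM in the normal mice, and in the colitis mice 0.79, 2.34 and 3.65 FPKM, at −0.74 (standard error 0.55, limma adjusted p = 0.414). The Kcnma1 groups overlapped, as did those of Cacna1c, the pore of the L-type calcium channel, at −0.95. Whether the differences of the 2 subunits differ from each other was not tested.

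Among the small heat shock proteins, Hspb6, a small heat shock protein tied to smooth muscle relaxation, was 12.75, 13.88 and 27.27 FPKM in the normal mice, and in the colitis mice 1.72, 10.86 and 8.99 FPKM. The groups did not overlap, with a log2 difference of −1.59 (standard error 0.78, limma adjusted p = 0.256). Hspb7, a relative best known from heart and skeletal muscle, was 5.42, 12.52 and 10.68 FPKM in the normal mice, and in the colitis mice 0.42, 4.64 and 6.67 FPKM, with overlapping groups and a difference of −1.83 (standard error 1.12, limma adjusted p = 0.339).

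Myocd, the coactivator myocardin, was at a low level, with a mean of 0.69 FPKM over the 12 mice. It was 0.47, 0.73 and 1.57 FPKM in the normal mice, and in the colitis mice 0.03, 0.11 and 0.52 FPKM, where the first value is under its 3-read floor of 0.0483 FPKM. Colitis mouse number 4 lay above normal mouse number 1, and the difference was −1.85 (standard error 0.87, limma adjusted p = 0.243). In the mice numbered 1 to 3 it was −2.06, with an adjusted p of 0.0425 by limma.

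**Figure D3:**
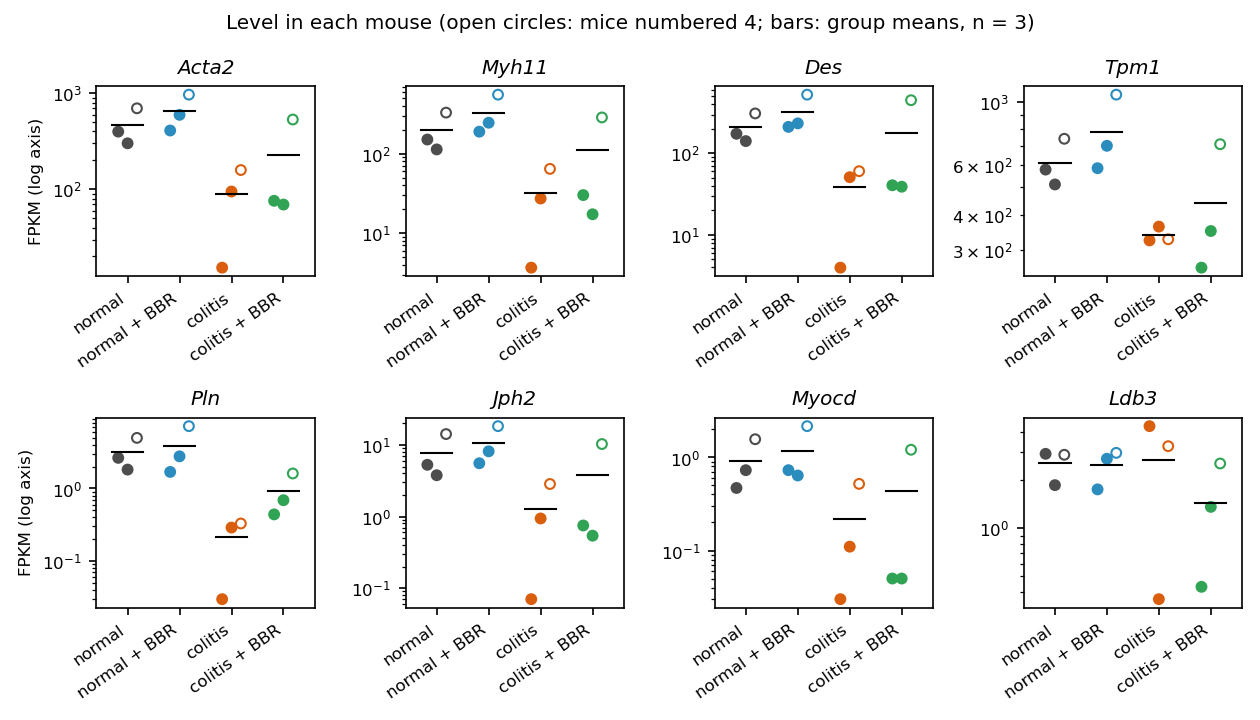
Each point is the FPKM of 1 mouse on a log axis, for 8 of the genes and the 4 groups, with open circles for the mice numbered 4 and bars for the group means (n = 3). Acta2, Myh11, Des, Jph2 and Myocd show the same split of the colitis mice receiving BBR, with the mouse numbered 4 far above the others, Tpm1 has the tightest colitis group, and Ldb3 has its highest value in colitis mouse number 1.

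The second comparison asked how the genes differ with BBR once DSS is given. Among colitis mice, 32 of the 33 genes had a higher mean log2 level with BBR, with a median difference of 0.84 against −0.09 for all tested genes. Only Ldb3 was lower, at −0.58. With an unadjusted P of at most 0.05, 1 of the 33 was higher, Pln, against 1.19% of all tested genes. Pln was also the only member whose groups did not overlap, against 1.42% of all tested genes that were higher without overlap. It was 0.44, 0.69 and 1.61 FPKM in colitis mice receiving BBR, each above all 3 colitis mice, and the difference was 1.69 (standard error 0.65, limma adjusted p = 0.66). The lowest colitis value of Pln, 0.03 FPKM, lay under its 3-read floor of 0.107 FPKM. The highest, 0.33 FPKM, was close to the lowest with BBR. By limma 0 of the 33 passed the adjusted limit, and of all tested genes 0% did. This comparison shares its colitis mice with the one against normal mice, and colitis mouse number 1, low in nearly every gene, enters both.

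The higher means with BBR rested largely on 1 mouse of 3. Acta2 was 75.88, 69.33 and 532.54 FPKM in colitis mice receiving BBR, Myh11 was 30.08, 17.25 and 285.62 FPKM, and Des was 40.66, 39.05 and 449.08 FPKM. In each of these 3 genes the mouse numbered 4 lay within or above the range of normal mice, while those numbered 2 and 3 lay within the range of the colitis mice. The differences were 1.2 for Acta2 (standard error 0.89, limma adjusted p = 1.000), 1.5 for Myh11 (standard error 1.09, limma adjusted p = 1.000) and 1.94 for Des (standard error 1.06, limma adjusted p = 0.895). Without colitis mouse number 4 receiving BBR the median of the 33 genes was −0.13, and the sign turned for 20 of them. Without colitis mouse number 1 the median was 0.10, and the sign turned for 13. In the mice numbered 1 to 3 alone the median was 0.27, with 11 genes lower. Between the 2 mice numbered 4 it was 1.73, with 32 higher, at a median over all genes of −0.02. Other markers were split in the same 3 mice. In the colitis mice numbered 2, 3 and 4 receiving BBR, markers of interstitial cells of Cajal, the pacemaker cells of the muscle coat, summed to 8.91, 13.8 and 65.9 FPKM and those of pericytes to 12.2, 14.1 and 38.9 FPKM. Adipocyte markers ran the other way, with 124, 79.9 and 16.6 FPKM, as did granulocyte markers, with 2090, 2950 and 491 FPKM. In colitis mice without BBR, too, the mouse numbered 4 had the lowest granulocyte sum, 602 FPKM against 1900 and 4190 FPKM, and the highest mean log2 level of the 33 genes, while their summed FPKM was highest in the mouse numbered 2. The part of these cells in the split was not tested.

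By role, the 12 filament genes had a median of 1.10 with BBR in colitis and the 12 dense body and adhesion genes one of 0.77, while the 6 calcium handling and channel genes had one of 0.18. Actg2 and Cnn1 were at 1.89 and 1.91, and the colitis mouse numbered 4 receiving BBR had the highest Actg2 level of the 12 mice, 801.09 FPKM. Casq2, at 0.14, 0.11 and 2.66 FPKM in colitis mice receiving BBR, was at 0.04 and its mice numbered 2 and 3 lay below all colitis mice. Tagln was 187.01, 197.25 and 767.29 FPKM, Tpm1 260.03, 350.08 and 708.06 FPKM and Csrp1 69.91, 72.56 and 350.77 FPKM in colitis mice receiving BBR. These 3 genes had differences of 1.39, 0.25 and 0.54. Flna (11.40, 10.34 and 123.16 FPKM) and Jph2 (0.75, 0.54 and 10.32 FPKM) repeated the pattern of 1 high mouse, as did Hspb6 (5.63, 4.96 and 31.07 FPKM) and Hspb7 (0.69, 1.44 and 18.43 FPKM). Myocd was 0.05, 0.05 and 1.21 FPKM in colitis mice receiving BBR, with a difference of 0.27 (standard error 0.87, limma adjusted p = 1.000). Kcnmb1 was 0.74, 0.62 and 4.50 FPKM, Kcnma1 1.27, 1.57 and 3.72 FPKM and Cald1 12.92, 16.65 and 72.60 FPKM, with differences of at most 0.28.

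**Figure D4:**
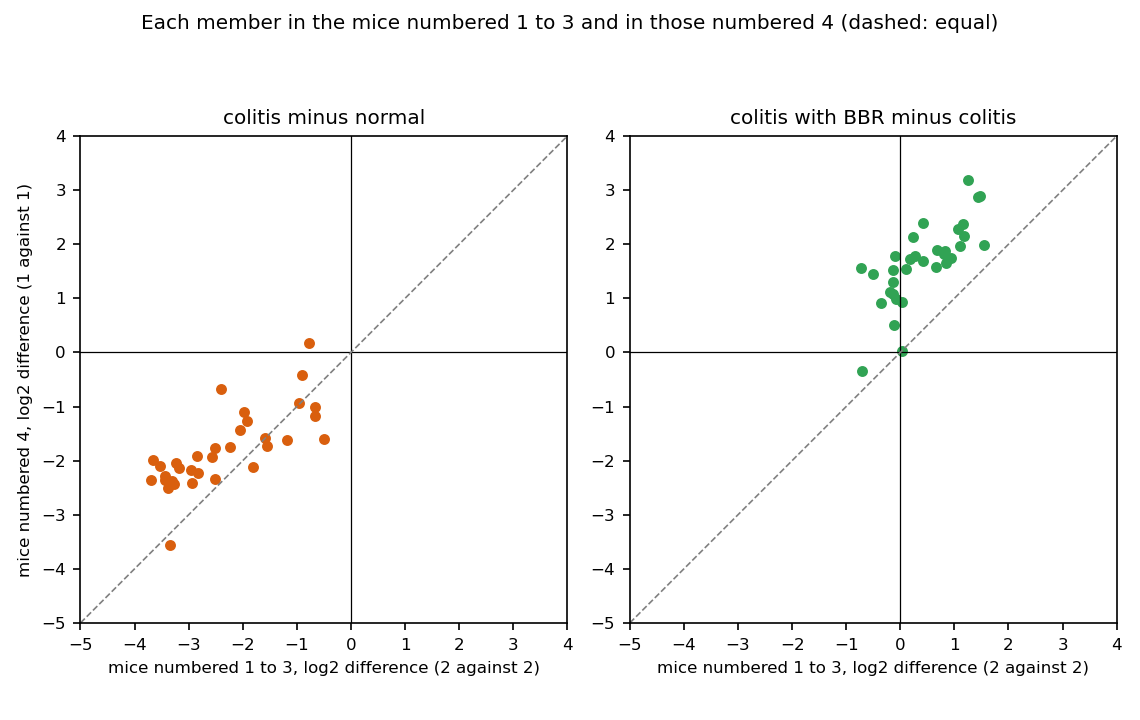
Each point is 1 of the 33 genes, with its log2 difference in the mice numbered 1 to 3 (2 against 2) on the horizontal axis and between the mice numbered 4 (1 against 1) on the vertical axis. On the left, colitis minus normal, 32 points lie below 0 in both; on the right, colitis with BBR minus colitis, nearly all points lie above the dashed line of equality, with medians of 0.27 and 1.73.

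The third comparison asked how the genes differ with BBR in normal mice. Their median log2 difference was 0.50, with 32 of 33 higher, against −0.02 for all tested genes. With an unadjusted P of at most 0.05, 0 of the 33 were higher, against 0.516% of all tested genes. The groups did not overlap upward in 0 of the 33, against 4.17%, and 0 passed the adjusted limit by limma, with 0% of all tested genes. Acta2 was 409.19, 595.66 and 966.68 FPKM in normal mice receiving BBR, Tagln 618.73, 839.62 and 1371.17 FPKM and Tpm1 582.78, 698.92 and 1058.51 FPKM. For these 3 genes the mouse numbered 4 was highest and the other 2 lay within or close to the range of normal mice. Differences were 0.50 (standard error 0.89) for Acta2, 0.58 (standard error 0.78) for Tagln and 0.33 (standard error 0.37) for Tpm1. Myh11 was 189.05, 245.02 and 553.00 FPKM, Des 211.46, 233.50 and 525.53 FPKM and Flna 84.72, 115.67 and 205.30 FPKM. Pln was 1.69, 2.77 and 7.21 FPKM, with a difference of 0.16, and Jph2 was 5.56, 8.16 and 18.35 FPKM, with one of 0.51. Without normal mouse number 4 receiving BBR the median of the 33 genes was 0.13.

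Of the remaining genes with values given per mouse, Ldb3 was at −0.05 with BBR in normal mice. The other 8 follow, as FPKM in normal mice receiving BBR. Csrp1 was 251.00, 333.37 and 477.60 FPKM, Kcnmb1 4.36, 4.78 and 6.75 FPKM and Kcnma1 3.38, 3.74 and 6.31 FPKM. Hspb6 was 13.42, 17.14 and 38.36 FPKM, Hspb7 10.77, 6.47 and 18.77 FPKM, Myocd 0.73, 0.64 and 2.17 FPKM, Cald1 41.47, 54.44 and 121.47 FPKM and Casq2 3.05, 3.11 and 6.99 FPKM. In all 8 of these genes the highest value of the 12 mice was that of normal mouse number 4 receiving BBR. The mice numbered 1 and 3 lay within the range of the normal mice for these genes, but for Casq2 at 3.05 FPKM, just below it.

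Colitis mice receiving BBR were compared with normal mice to see how far levels lay from those without DSS. All 33 genes were lower, with a median of −1.38 against −0.42 for all tested genes. With an unadjusted P of at most 0.05, 3 were lower, Casq2, Itga8 and Pln, against 18.3% of all tested genes. The groups did not overlap for 2 of the 33, Casq2 and Pln, against 20.8% of all tested genes that were lower without overlap. By limma 0 passed the adjusted limit, against 0.0196% of all tested genes. Casq2 was at −2.80 (standard error 0.83, limma adjusted p = 0.21), close to its difference without BBR. The counts changed with the mice numbered 4. Between the colitis mouse numbered 4 receiving BBR and the normal mouse numbered 4 the median was −0.18, with 22 genes lower, 10 higher and Synm listed at the same 36.14 FPKM. In the mice numbered 1 to 3 alone it was −2.0, with 25 genes lower past the unadjusted limit, against 35% of all tested genes, and 9 past the adjusted limit by limma, against 14.1%. Without colitis mouse number 4 receiving BBR 16 of the 33 genes passed the adjusted limit, against 18.9% of all tested genes, with a median of −2.30.

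The interaction, which asks whether BBR changed a gene by a different amount in colitis than in normal mice, had a median of 0.34 over the 33 genes, with 11 below 0. By limma 0 of the 33 had an unadjusted P of at most 0.05, against 2.42% of all tested genes, and 0 passed the adjusted limit, with 0% of all tested genes. Pln had the largest value, 1.52 (standard error 0.93, limma adjusted p = 1.000). In the mice numbered 1 to 3 alone the median was −0.06.

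Of 67 other genes of the smooth muscle pathway, 65 passed the level filter. In colitis against normal mice 59 of the 65 were lower, 26 of them with an unadjusted P of at most 0.05, against 15.9% of all tested genes, and 0 with one on the higher side, and the median was −0.93. By limma 0 of the 65 passed the adjusted limit, against 1.08% of all tested genes, while 13 did with the replicate number as a block, against 4.79%, 23 with the mice numbered 4 as a block, against 9.22%, and 11 in the mice numbered 1 to 3 alone, against 5.25%. Serum response factor itself, Srf, was 18.62, 12.78 and 24.54 FPKM in the normal mice, and in the colitis mice 13.50, 9.72 and 19.55 FPKM, a difference of −0.39 (standard error 0.35, limma adjusted p = 0.5). Its coactivator Mrtfa was 8.21, 9.38 and 12.07 FPKM in the normal mice, and in the colitis mice 5.51, 4.68 and 10.69 FPKM, at −0.58 (standard error 0.42, limma adjusted p = 0.41). Mrtfb was 8.10, 10.13 and 9.28 FPKM in the normal mice, and in the colitis mice 5.19, 3.24 and 7.19 FPKM, at −0.87 (standard error 0.41, limma adjusted p = 0.242). Mrtfb did not overlap between the groups, and the other 2 did. With BBR in colitis mice 28 of the 65 were lower and 0 passed the unadjusted limit in either direction, against 6.39% of all tested genes, with a median of 0.04.

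Some of these genes, named after their values were seen, are shared by most cells and lay flat. The essential light chain gene Myl6 was at −0.09 and the small GTPase gene Rhoa at −0.16. Sgcb and P2rx1 of the same list also lay flat, at −0.07 and −0.08, and Rock2 was higher, at 0.53. The genes named here were picked by value, so they do not sort the list by cell type. Others are known from smooth muscle and were about as low as the median of the 33 genes. The caveolin gene Cav1 was 40.24, 43.90 and 84.71 FPKM in the normal mice, and in the colitis mice 4.81, 14.02 and 19.12 FPKM, at −2.27 (limma adjusted p = 0.12). The myosin phosphatase subunit gene Ppp1r12b was at −2.53 (limma adjusted p = 0.151), the muscarinic receptor gene Chrm2 at −2.37 (limma adjusted p = 0.15) and the neurokinin receptor gene Tacr2 at −2.18 (limma adjusted p = 0.141). The hedgehog targets Gli1 and Hhip, which mark cells of the gut mesenchyme that answer this epithelial signal, were at −3.27 and −3.04 (limma adjusted p = 0.0659 and 0.0856), and the receptor gene Ptch1 at −1.87 (limma adjusted p = 0.109).

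Markers of other cells moved in the same comparison. The interstitial cell of Cajal list had all 4 markers lower in colitis mice, with a median of −1.76. Of these, 3 were past the unadjusted limit, against 15.9% of all tested genes lower past it. Its summed level was 79.2 to 103 FPKM in the normal mice, and in the colitis mice 12.8 to 40.5 FPKM. The pericyte list had 7 of 8 lower, with a median of −1.15 and sums of 40 to 64.8 FPKM and 9.11 to 44.4 FPKM. The endothelium list had 6 of 7 lower, with a median of −1.12 and sums of 31.6 to 39.2 FPKM and 16.9 to 50.4 FPKM. Fibroblast markers were lower in 9 of 10, with a median of −0.58 and overlapping sums of 332 to 555 FPKM and 208 to 810 FPKM. Enteric neuron markers were lower in 9 of 10 (median −0.83) and enteric glia markers in 5 of 6 (median −0.79). No marker of these lists was at 0 in every mouse.

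Epithelium and broadly expressed genes differed little, with medians of −0.03 and 0.10. Epithelial sums were 12000 to 17300 FPKM in the normal mice, and in the colitis mice 12100 to 17700 FPKM. Granulocyte markers were higher in all 9 cases, with a median of 2.31 and sums of 263 to 708 FPKM and 602 to 4190 FPKM. The part of these other cells in the levels of the muscle genes was not tested.

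Skeletal muscle, which surrounds the anal canal, would share several of the 33 genes. Of 18 skeletal muscle markers 10 passed the level filter, with a median of −0.83 between colitis and normal mice. Lower in colitis were 8 of these, 4 of them past the unadjusted limit, against 15.9% of all tested genes. The other 2 were higher past it, and no share of all tested genes on that side is given here. The sarcomere genes Myh1, Myh7, Ttn and Neb were at most 0.05 FPKM in every mouse, but other markers of the list were detected. Ckm, the muscle creatine kinase, was 5.68, 5.51 and 9.83 FPKM in the normal mice, and in the colitis mice 0.40, 1.11 and 1.04 FPKM, at −2.96 (limma adjusted p = 0.0533). In colitis mice receiving BBR Ckm was 1.57, 1.49 and 8.54 FPKM, with the mouse numbered 4 highest. The mean log2 level of the list was also highest there, at 0.71 against −0.06 and 0.07. By FPKM the list was ordered otherwise in these 3 mice, with sums of 402, 98.4 and 242 FPKM, Eno3 at 392.21, 78.11 and 224.14 FPKM and Acta1 at 6.35, 15.50 and 4.77 FPKM. Myh2, a fast myosin heavy chain, was 0.08 to 0.28 FPKM in the normal mice, and in the colitis mice at most 0.01 FPKM, and both Myh2 and Tnnt3 were highest in normal mouse number 4 receiving BBR, at 0.87 and 2.25 FPKM. Eno3, the muscle enolase, at 53.90 to 392.21 FPKM and a difference of −2.22 (limma adjusted p = 0.0433), made up most of the sum of this list, which was 255 to 337 FPKM in the normal mice, and in the colitis mice 69.3 to 96.9 FPKM. Acta1, skeletal actin, went the other way from Acta2, with 2.31, 3.88 and 7.66 FPKM in the normal mice, and in the colitis mice 14.47, 12.21 and 11.27 FPKM, at 1.59 (limma adjusted p = 0.118). It is a close relative of the other actins, so reads could be divided among them. The part of skeletal muscle in the levels of the 33 genes was not tested. Of 6 cardiac muscle markers 5 passed the level filter. The sums of this list overlapped, with 7.89 to 18.2 FPKM in the normal mice and 5.66 to 16.8 FPKM in the colitis mice. Its members went both ways. The cardiac marker Tnnt2 was at −2.61 (limma adjusted p = 0.0712), Ryr2 at −0.84 (limma adjusted p = 0.392) and Myl7 at 3.46 (limma adjusted p = 0.0753). Myl7 was 0.62, 0.63 and 0.49 FPKM in the normal mice, and in the colitis mice 15.67, 9.20 and 2.73 FPKM.

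**Figure D5:**
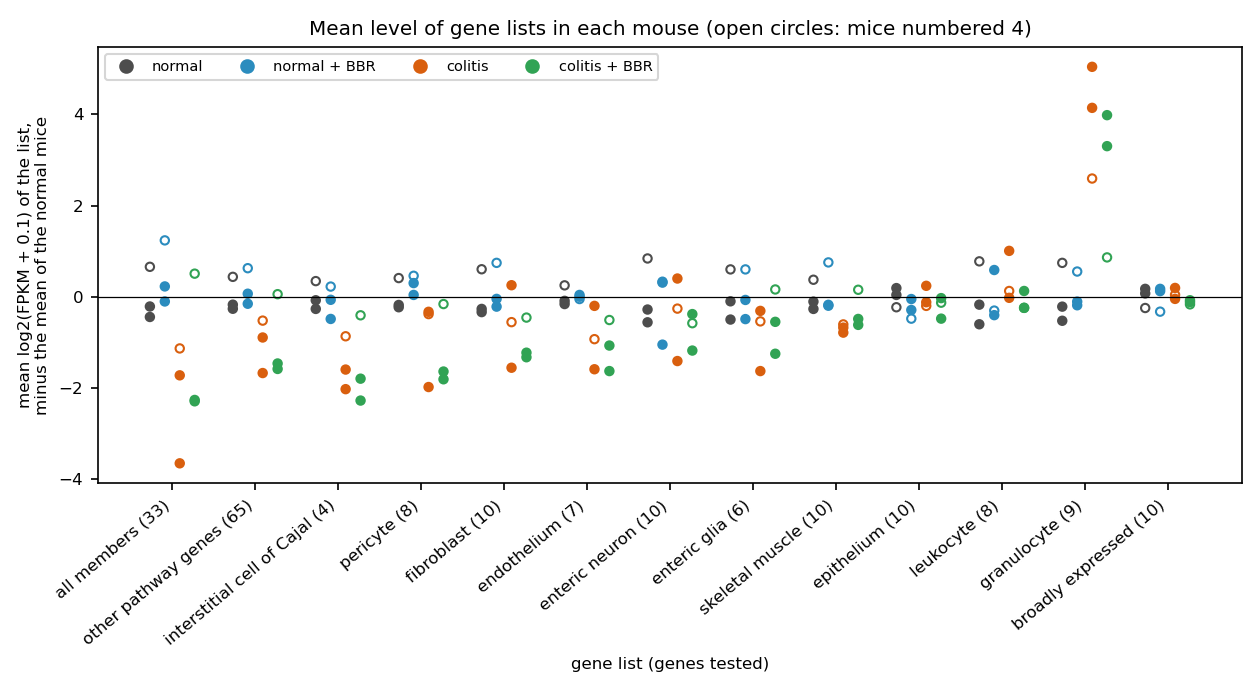
Each point is the mean log2(FPKM + 0.1) of a gene list in 1 mouse, minus the mean of the 3 normal mice, with open circles for the mice numbered 4 and the number of tested genes after each list. The 33 genes spread the most on the lower side, the interstitial cell of Cajal, pericyte and other pathway lists lie below 0 in colitis mice, epithelium and broadly expressed genes stay close to 0, and granulocyte markers lie above it.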

How the data were processed

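RNA of rectal samples of 12 mice was sequenced by the authors as single-end reads of 50 bases. They filtered the reads, aligned them with Bowtie2 2.2.5 and estimated expression with RSEM 1.2.12, as the methods and the submitters' processing notes state, and the notes name the build mm9. The library kit and sequencer differ between the labels and the methods. The deposited values were read as FPKM, 1 column per mouse. The unit is not named in the sources used here and was inferred from the values, so TPM cannot be told apart with certainty. Read counts were not used here, so depth was estimated from steps between low values of 100 to 145 genes per mouse, with 46.6% to 66.9% of these values within 0.15 of a whole number of reads. The 3-read floors are therefore rough and cover counting error only.

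Groups and replicate numbers came from the labels, and no column was left out. Genes with a mean level of 0.1 or more, 15315 in number, entered limma 3.58.1 (R 4.3.3) as log2(FPKM + 0.1), in a model of group means over all 12 mice whose variance prior follows mean expression. A pseudocount of 0.1 understates the change of low genes. Adjusted p-values are Benjamini-Hochberg values over the 15315 genes, read at 0.05, and the unadjusted P of at most 0.05 follows the study. Single genes also had an exact two-sided permutation test, 3 mice against 3. The fit was also run on simulated data with independent noise in each gene and mouse. Such data lack the shift shared by the mice numbered 4, so they cannot show how it affects the calls. The alternatives changed the pseudocount to 1 or 0.01, raised the level filter to 1 or dropped it, used quantile normalization or median centring, fitted the compared groups alone, dropped the trend, and set the replicate number or the mice numbered 4 as a block. Others were the mice numbered 1 to 3 alone and leaving out each mouse in turn. Promoters came from RefSeq windows matched by symbol, and 5 members without a window (Myh11, Actg2, Tagln, Myocd and Nexn) have none here. Scripts for these and for the figures used Python 3.11.15 with NumPy 2.4.6, pandas 2.3.3 and matplotlib 3.10.9.

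The genes of the group, the lists and the alternatives were chosen with earlier results of these data known. Values in every mouse are given for the 3 members of highest mean in each role, for members past the adjusted limit and for 4 members chosen after their values were seen (Myh11, Ldb3, Cald1 and Casq2). The other members are given by counts and by their log2 differences. Lists of cell type markers and of other pathway genes are described by counts and medians, with no set test. Lists for squamous epithelium, leukocytes, adipocytes and mesothelium were also written. Between colitis and normal mice their medians were −0.19, 0.37, −1.93 and −0.25 over 6, 8, 6 and 5 tested genes. The adipocyte value rests on normal mouse number 4, which stood apart in fat markers with a summed level of 227 FPKM, against 23.4 and 26 FPKM in the other normal mice and 13.8 to 38.8 FPKM in colitis mice. These markers were also high in the colitis mice numbered 2 and 3 receiving BBR, at 124 and 79.9 FPKM. The adipocyte median was 0.00 in the mice numbered 1 to 3 alone.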

Additional observations from a re-analysis of the deposited data

How the results depend on the processing

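The median of the 33 genes between colitis and normal mice stayed between −2.93 and −1.48 in every fit that left out 1 mouse, and between −2.64 and −1.71 under the other alternatives. The number past the adjusted limit was 1 as reported. It was 0 with a pseudocount of 1 or 0.01 or a filter at a mean of 1, 3 with the compared groups alone, 7 in the mice numbered 1 to 3 alone, 22 with the mice numbered 4 as a block and 0 to 9 when 1 mouse was left out. The number past the unadjusted limit was 9 to 28 with 1 mouse left out, against 14% to 31.4% of all tested genes, with 26.8% in the fit that gave 28. Shares of all tested genes in these paragraphs count both directions, while those in the results beside a number of lower genes count lower genes alone. Those past the adjusted limit moved too, from 1.08% as reported to 3.19% with the compared groups alone, 5.25% in the mice numbered 1 to 3 alone, 9.22% with the mice numbered 4 as a block and 0.0718% to 5.34% with 1 mouse left out.

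Replicate numbers are shared only in part between groups, and nothing says what they mark. Deviations from the group means correlated at 0.34 on average between the 13 pairs of mice with the same number (lowest 0.08), against −0.10 for different numbers. The mice numbered 4 gave 0.50, and among those numbered 1 to 3 it was 0.21 for the same and 0.19 for different numbers, so the numbers were not taken as pairs. With the replicate block, 14 of the 33 genes passed the adjusted limit between colitis and normal mice, against 4.79% of all tested genes, and Ldb3 was at 0.26. With BBR in colitis 3 passed the unadjusted limit, against 11% of all tested genes, and Kcnma1, Hspb7 and Cald1 were at −0.08, −0.09 and −0.05. In colitis mice receiving BBR against normal mice 24 passed the unadjusted limit, against 22.8%, and in the interaction 1 did, against 5.09%.

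With BBR in colitis mice the median was −0.13 to 1.28 with 1 mouse left out, and 0 to 6 genes passed the unadjusted limit, against 3.24% to 10.9% of all tested genes. That number was 0 with a pseudocount of 1, against 6.14%, 4 after centring on the median, against 6.48%, and 8 with the mice numbered 4 as a block, against 9.89% of all tested genes. Under these settings Kcnma1 was at −0.00 with a pseudocount of 1 and Casq2 at −0.16 with one of 0.01. In the mice numbered 1 to 3 alone the signs turned for Kcnmb1 (−0.08), Csrp1 (−0.09), Hspb7 (−0.51), Tpm1 (−0.19), Myocd (−0.14), Cald1 (−0.36), Casq2 (−0.73), Mylk (−0.14), Pdlim7 (−0.14) and Cacna1c (−0.12), 10 genes in all. Leaving out 1 mouse gave −0.70 to 0.54 for Cald1, −1.17 to 0.69 for Casq2, −0.23 to 1.01 for Csrp1, −0.57 to 1.28 for Flna, −0.07 to 1.25 for Hspb6, −1.21 to 1.06 for Hspb7, −0.13 to 2.08 for Jph2, −0.55 to 0.48 for Kcnma1, −0.58 to 0.78 for Kcnmb1, −1.61 to 0.05 for Ldb3, −0.78 to 0.90 for Myocd and −0.16 to 0.56 for Tpm1. Between colitis and normal mice it gave −1.07 to 0.57 for Ldb3.

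With BBR in normal mice 1 gene passed the unadjusted limit with the mice numbered 4 as a block and 1 in the mice numbered 1 to 3 alone, against 2.43% and 1.8% of all tested genes. In colitis mice receiving BBR against normal mice 21 and 25 did, against 32.7% and 38.6% of all tested genes called in either direction, and 9 passed the adjusted limit in the mice numbered 1 to 3 alone, against 14.1%. With 1 mouse left out 0 to 16 passed the adjusted limit, against 0% to 18.9% of all tested genes, and 1 to 28 the unadjusted limit, against 9.68% to 40.9%. The interaction median was −0.06 in the mice numbered 1 to 3 alone and −0.52 to 0.95 with 1 mouse left out. In it, 1 gene passed the unadjusted limit after quantile normalization, 1 with the mice numbered 4 as a block and 0 to 1 with 1 mouse left out, against 2.98%, 4.38% and 1.46% to 5.8% of all tested genes. The causes of these changes were not tested.

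With 3 mice a group, differences within the spread between mice could not be detected. Values of Pln, Itga8 and Myocd in colitis rest on few reads, and TPM or FPKM cannot express how much muscle a sample held.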
